A study of Mus musculus with 6 samples.

Results

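A set of 10 genes that mark Müller glia were followed in BMAL1 chromatin immunoprecipitation sequencing (ChIP-seq) peaks from mouse retina: Glul, Slc1a3, Apoe, Aqp4, Sox9, Dkk3, Clu, Hes1, Abca8a and Car2. Every peak was taken whose summit lay inside one of these genes or within 10 kb of it. The genes are 10 of 21900 protein-coding genes, and 66 peaks met the rule, 23 in the library Bmal1 CKO 2 and 43 in Control 1. The other 4 libraries had none. The series holds 6 libraries made with a rabbit antibody against BMAL1, 3 from Bmal1 CKO (conditional knockout) retinas, Bmal1 CKO 1 to 3, and 3 from wild-type retinas, Control 1 to 3. All mice were C57BL/6, received no external treatment and were weaned at postnatal day 20. The labels give neither the age at collection, nor the time of day, nor the cells in which the knockout acts. The whole retina was used, so a peak cannot be assigned to Müller glia, and ChIP-seq peaks do not show whether a marker was expressed.

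Müller glia are the main supporting cells of the retina and span its whole thickness. They clear glutamate and potassium released by neurons, move water, carry lipids and buffer acid, and in some vertebrates, such as zebrafish, they can give rise to new neurons. BMAL1 pairs with CLOCK and binds E-box DNA, whose preferred form is CACGTG, at genes with a daily rhythm. The title of the study ties Bmal1 to thyroid hormone and cones. The peaks at glial genes therefore lie outside its named question and are described here across the libraries of both genotypes.

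A list held 1444, 138254 and 519 peaks in Bmal1 CKO 1 to 3, and 179475, 410 and 372 in Control 1 to 3. Each genotype thus had 1 long list. A fold enrichment compares the fragments stacked at a peak's summit with the local background used for that library. Both numbers could be solved from the fold and its p-value. The sources do not state whether that background came from the library itself or from an input. The lowest background, that of the genome as a whole, stood for depth. For Bmal1 CKO 1 to 3 it came to 2.78, 5.83 and 0.560 fragments per position, and for Control 1 to 3 to 3.46, 0.609 and 0.852. The targeted gene, listed as Arntl, had 15 peaks inside or up to 10 kb away in Bmal1 CKO 2, 19 in Control 1 and none elsewhere, which does not test whether the gene was deleted.

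A peak was recorded in or near 9 of the 10 marker genes in Bmal1 CKO 2, where 87.8% of all protein-coding genes had one, and at 10 of 10 in Control 1, where 92.5% did. The exception in Bmal1 CKO 2 was Apoe, which left 9 with a peak in both, beside 85.8% of protein-coding genes. In the 4 short lists no marker gene had one, while 1.99% of protein-coding genes did in Bmal1 CKO 1 and 1.08% did in Bmal1 CKO 3, against 0.781% for Control 2 and 0.758% for Control 3. The nearest peak of these 4 lists to any marker gene lay 305 kb from Slc1a3. A summit within 1 kb of either annotated gene end, called an end peak here, was found at 4 marker genes in Bmal1 CKO 2, beside 58.8% of protein-coding genes, and at 8 in Control 1, beside 69.5%. The list of Bmal1 CKO 1 had an end peak at 0.315% of protein-coding genes and that of Bmal1 CKO 3 at 0.105%, against 0.0594% for Control 2 and for Control 3.

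The genotypes could not be separated by these numbers. The mean was 7.67 ± 13.3 peaks per library in Bmal1 CKO retinas and 14.3 ± 24.8 in control retinas (SD, n = 3 each), a difference of −6.67 with an exact two-sided permutation p of 1, where 0.10 is the smallest p that 3 libraries against 3 allow. Marker genes with a peak averaged 3.00 ± 5.20 in Bmal1 CKO and 3.33 ± 5.77 in control libraries (SD, n = 3 each; exact permutation p = 1). Marker genes with an end peak averaged 1.33 ± 2.31 in Bmal1 CKO and 2.67 ± 4.62 in control libraries (SD, n = 3 each; exact permutation p = 1). Adjusted over these 3 tests each p was 1. With peaks in 1 library of each genotype alone, no assignment gives a smaller absolute difference than the one observed. Each p was therefore fixed at its highest value whatever the counts, and these tests cannot compare the genotypes. Without Control 1 the 3 differences were 7.67, 3.00 and 1.33, and without Bmal1 CKO 2 they were −14.3, −3.33 and −2.67, so each rests on the pair of long lists.

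**Figure D1:**
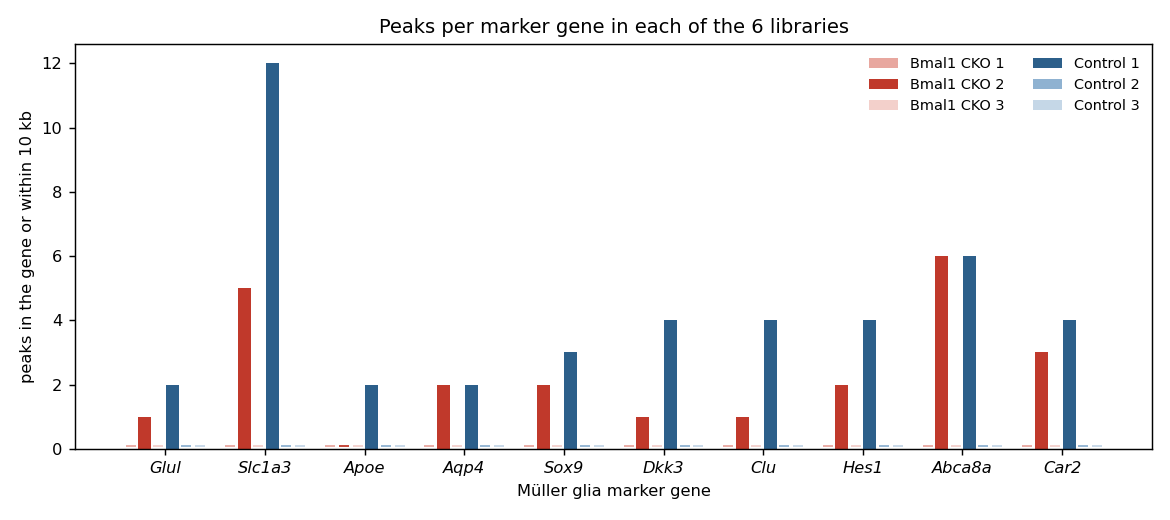
Number of peaks with the summit in each marker gene or within 10 kb of it (y axis, count) for the 10 genes (x axis). Bars stand for single libraries, Bmal1 CKO 1 to 3 in red shades and Control 1 to 3 in blue shades, and a short dash at the base marks a count of 0; peaks are seen in Bmal1 CKO 2 and Control 1, with the most, 12, at Slc1a3 in Control 1.

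Glul encodes glutamine synthetase, which turns glutamate and ammonia into glutamine and is the classic marker of Müller glia. The gene (mm10 chromosome 1, 153899929 to 153909723) had an end peak in both long lists. In Bmal1 CKO 2 the summit lay 379 bp inside the lower end at 153900308, where 37 stacked fragments over a local background of 14.2 gave a fold of 2.51. In Control 1 it lay 203 bp inside at 153900132, where 37 fragments over a background of 9.42 gave 3.65. The summits were thus equal in raw fragments, in libraries of different genome-wide background. Relative to that level, the summit stood at 6.34 in Bmal1 CKO 2 and 10.7 in Control 1. The local background stood at 2.43 in Bmal1 CKO 2 and 2.72 in Control 1. The lower end is the annotated start of Glul, as the RefSeq promoter table (GRCm38.p6, the coordinates of mm10) places the gene on the plus strand. The 1045 bp peak of Control 1 covered all 300 bases of the promoter window and the whole hairpin of Mir8114, a microRNA gene annotated across the same start. The 232 bp peak of Bmal1 CKO 2 covered neither, and lay downstream of both. Control 1 alone had a further peak 5935 bp beyond the upper end, with a fold of 2.54.

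The table held promoter windows, from 250 bases before to 50 after an annotated start, for 4 of the 10 marker genes: Glul, Apoe, Abca8a and Slc1a3. The windows of Glul (chr1:153899679-153899978, plus strand), Slc1a3 (chr15:8710758-8711057, minus strand) and Abca8a (chr11:110095888-110096187, minus strand) are given 5′ to 3′ from RefSeq because they show a promoter under a peak, a promoter just beside one and the only CACGTG among the 6 windows of these genes. Capitals mark every match to the general E-box CANNTG, which reads the same on both strands and includes CACGTG.
Glul: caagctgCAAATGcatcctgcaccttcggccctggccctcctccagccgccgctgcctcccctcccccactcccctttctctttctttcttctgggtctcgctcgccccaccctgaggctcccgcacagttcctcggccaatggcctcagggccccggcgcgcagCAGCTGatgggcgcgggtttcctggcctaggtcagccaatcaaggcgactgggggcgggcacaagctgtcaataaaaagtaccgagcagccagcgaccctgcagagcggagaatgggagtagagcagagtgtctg
Slc1a3: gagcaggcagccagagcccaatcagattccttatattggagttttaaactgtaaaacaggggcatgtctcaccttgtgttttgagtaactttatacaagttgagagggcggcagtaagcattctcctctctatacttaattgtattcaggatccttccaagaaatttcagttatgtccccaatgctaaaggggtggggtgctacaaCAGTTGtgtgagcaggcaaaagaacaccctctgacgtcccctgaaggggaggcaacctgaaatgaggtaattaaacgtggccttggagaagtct
Abca8a: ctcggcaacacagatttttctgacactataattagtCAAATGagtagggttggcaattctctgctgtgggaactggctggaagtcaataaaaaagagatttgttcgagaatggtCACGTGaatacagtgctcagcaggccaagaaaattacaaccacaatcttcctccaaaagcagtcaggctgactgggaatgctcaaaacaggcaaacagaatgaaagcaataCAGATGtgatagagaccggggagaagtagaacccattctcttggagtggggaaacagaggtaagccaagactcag
With the annotated start counted as 0, the Glul window held CAAATG at −243 and CAGCTG at −85, and no CACGTG. The Slc1a3 window held CAGTTG at −44. The Abca8a window held CACGTG at −136 between CAAATG at −214 and CAGATG at −25, and no peak of either long list overlapped it. Of 3 Apoe windows 1 held a CANNTG match and none held CACGTG.

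Over 32851 promoter windows of the same length, 72.3% held CANNTG and 7.15% held CACGTG. Windows with CACGTG overlapped a peak in 51.3% of cases in Bmal1 CKO 2 and 62.5% in Control 1, and windows without it in 33.9% in Bmal1 CKO 2 and 42.5% in Control 1. Their median GC content was 58.0% with and 52.3% without the motif. For CANNTG the order was the other way round: 30.8% with and 46.7% without it overlapped a peak in Bmal1 CKO 2, and 39.1% with and 56.7% without it in Control 1, at a median GC content of 51.7% with and 57.3% without. The part of base composition in this was not tested. A match to these letters is a description and not a bound site, and the absence of one says only that the letters are not in the window.

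The hairpin under the Control 1 peak at the Glul start, Mir8114 (chr1:153899926-153900036, plus strand), and its mature product with the seed in capitals are given next, since both lie at the start of Glul.
Mir8114 hairpin: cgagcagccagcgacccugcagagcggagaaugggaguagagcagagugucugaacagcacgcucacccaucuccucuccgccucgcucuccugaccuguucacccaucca
mmu-miR-8114: uCACCCAUcuccucuccgccu
All 111 bases of the hairpin lay under the Control 1 peak and 0 under the Bmal1 CKO 2 peak. Reads at this place cannot be assigned to Glul or to Mir8114. The long noncoding RNA (lncRNA) gene Gm38440 also lies within 1 kb of the Glul end peak summit in both lists.

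Slc1a3 encodes GLAST, the transporter by which Müller glia take up glutamate (chromosome 15, 8634124 to 8710807). It had 5 peaks in Bmal1 CKO 2 and 12 in Control 1, and 3 places were shared. In the flank, summits at 8629644 in Bmal1 CKO 2 and 8629529 in Control 1 had folds of 2.61 and 4.09. Inside the gene, 4567 bp and 4676 bp from the lower end, the folds were 2.88 in Bmal1 CKO 2 and 3.85 in Control 1. Further inside, at 8645779 and 8645707, they were 3.24 in Bmal1 CKO 2 and 3.34 in Control 1. These places lie beyond and inside the 3′ end of this minus-strand gene, away from its start. At the start itself Bmal1 CKO 2 listed no peak, and Control 1 listed a weak one 461 bp downstream, with a fold of 2.88, a −log10 q-value of 2.71 and 15 stacked fragments. That 200 bp peak did not reach the promoter window, and its summit lay within 1 kb of the lncRNA gene Gm31340.

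The next 3 genes handle lipids or unfolded proteins. Apoe encodes apolipoprotein E, a carrier of cholesterol (chromosome 7, 19696244 to 19701310), and had no peak in Bmal1 CKO 2 and 2 in Control 1. The Control 1 end peak lay 682 bp inside the upper end with a fold of 2.07, the lowest of all 66 peaks and at percentile 0.168 of its list. It lay 685 bp below the lower end of the neighbour Tomm40, and at −1440 relative to the most upstream Apoe start in the promoter table, so that it cannot be assigned to Apoe. The other Control 1 peak, with a fold of 2.50, lay inside Tomm40.

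Clu encodes clusterin, a secreted chaperone that binds lipids and misfolded proteins (chromosome 14, 65968483 to 65981548). Its end peak was in both lists, with summits 160 bp and 191 bp inside the lower end in Bmal1 CKO 2 and Control 1. The fold was 2.62 in Bmal1 CKO 2, with 37 fragments over 13.5, and 3.85 in Control 1, with 41 over 9.90. Control 1 had 3 further peaks at Clu, with folds of 2.79 to 3.15, of which 1 lay inside the gene and 1 inside the neighbour Gulo.

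Abca8a encodes a membrane transporter of the ABC family (chromosome 11, 110025634 to 110097580). It had 6 peaks in each long list, none at an end, and 4 places were shared. Inside the gene, summits at 110032972 in Bmal1 CKO 2 and 110032971 in Control 1 differed by 1 bp and had folds of 2.90 and 4.49. A neighbouring pair with summits 12 bp apart had 3.09 in Bmal1 CKO 2 and 3.61 in Control 1. Both pairs lie near the 3′ end of the gene, which is on the minus strand. The third pair, at 110069509 and 110069425, had 3.51 in Bmal1 CKO 2 and 3.59 in Control 1. The fourth lay 1498 bp and 1512 bp above the upper end, with 3.37 in Bmal1 CKO 2 and 3.59 in Control 1. The recurrent peaks of Abca8a thus lay inside the gene and in its flank, and not at the CACGTG of its promoter window. In Control 1, 4 of the 6 Abca8a peaks stood on the genome-wide background of 3.46 fragments, 2 of them with only 15 stacked fragments each.

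Aqp4 and Car2 serve water and acid balance. Aqp4 encodes the water channel of the glial end feet (chromosome 18, 15389394 to 15410982) and had 2 peaks in each long list, none at an end. A single place was shared, near the middle of the gene, with summits at 15401109 in Bmal1 CKO 2 and 15401150 in Control 1 and folds of 2.98 and 3.61. The lncRNA gene A830021F12Rik overlaps it there. The second Bmal1 CKO 2 peak, with a fold of 3.07, lay in the flank inside the pseudogene Gm7650, and the second Control 1 peak, with 4.04, lay 4064 bp inside the upper end.

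Car2 encodes carbonic anhydrase 2, which interconverts carbon dioxide and bicarbonate (chromosome 3, 14886269 to 14900770). It held the highest folds of all marker genes in both lists. The end peak had summits at 14886651 in Bmal1 CKO 2 and 14886675 in Control 1, 382 bp and 406 bp inside the lower end. Its fold was 3.39 in Bmal1 CKO 2, from 31 stacked fragments over 8.44, and 6.16 in Control 1, from 40 over 5.66. These folds stood at percentile 78.1 of the Bmal1 CKO 2 list and 97.9 of the Control 1 list. A second shared peak lay 2643 bp and 2721 bp inside the upper end, with folds of 4.21 in Bmal1 CKO 2 (percentile 95.3) and 4.93 in Control 1 (percentile 91.1). The highest marker gene fold was thus inside the gene in Bmal1 CKO 2 and at the end in Control 1. Ranks in lists of different length do not show a change.

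The remaining genes act in glial fate and signalling. Sox9 encodes a transcription factor of glial cells (chromosome 11, 112782210 to 112787757). Bmal1 CKO 2 listed 2 neighbouring peaks inside it, with folds of 2.33 and 2.40, and both overlapped a single 801 bp peak of Control 1 with a fold of 2.65. The end peak of Sox9, 513 bp inside the lower end with a fold of 2.57, and a flank peak with 3.02 were in the Control 1 list alone.

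Hes1 encodes a repressor that Notch signalling switches on (chromosome 16, 30065357 to 30067796). Its shared peak lay outside the gene, 2347 bp and 2250 bp beyond the upper end in Bmal1 CKO 2 and Control 1, with folds of 2.32 and 2.93, inside the lncRNA gene Gm32998. Bmal1 CKO 2 had a second flank peak with a fold of 2.46. Control 1 had peaks 1078 bp below the lower end (fold 2.87), inside the gene (2.20) and 475 bp inside the upper end (2.57). The last of these also lay within 1 kb of Gm32998.

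Dkk3 encodes a secreted glycoprotein of the Dickkopf family (chromosome 7, 112116019 to 112159482). The end peak was in both lists, with summits at 112159032 in Bmal1 CKO 2 and 112159000 in Control 1, 450 bp and 482 bp inside the upper end, and folds of 2.83 and 3.30. Control 1 had 3 more peaks inside the gene, with folds of 2.36 to 2.50.

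**Figure D2:**
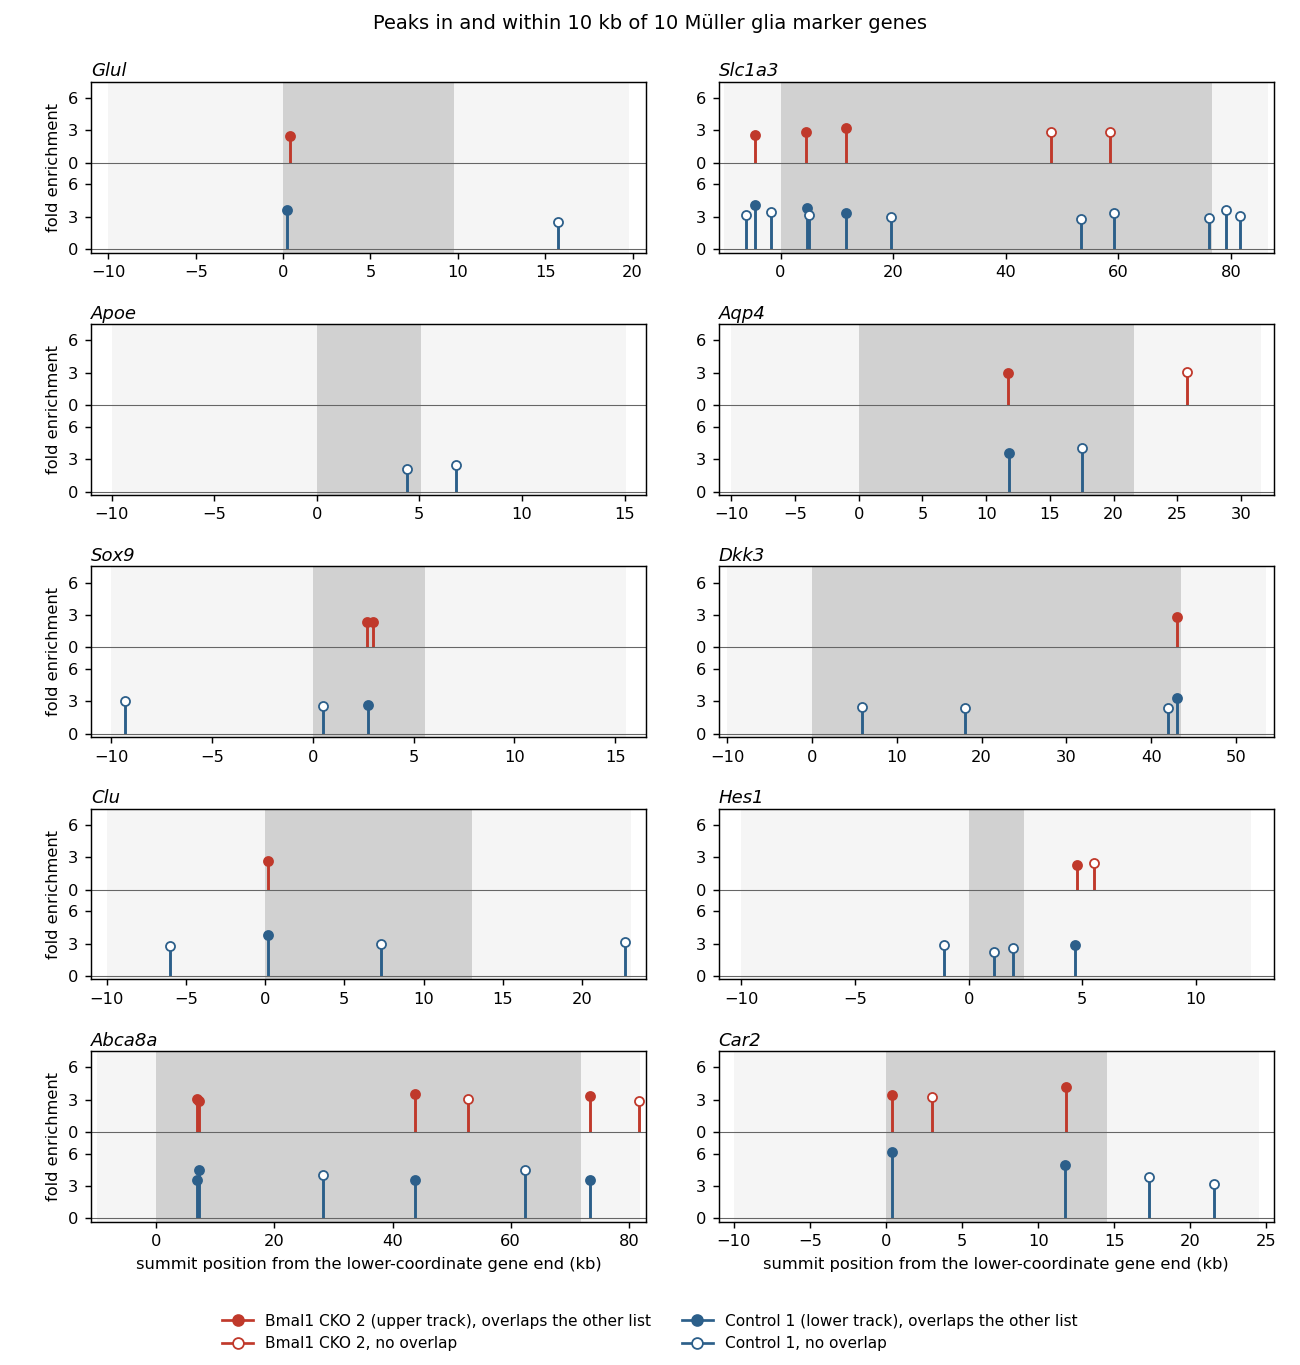
Position of each summit from the lower-coordinate gene end (x axis, kb) and its fold enrichment (y axis, upper scale Bmal1 CKO 2 in red, lower scale Control 1 in blue) for the 10 marker genes; dark grey is the gene and light grey the 10 kb flanks. Filled circles overlap a peak of the other long list; filled pairs stand at the ends of Glul, Dkk3, Clu and Car2, inside Slc1a3, Aqp4, Sox9, Abca8a and Car2, and in the flanks of Slc1a3, Hes1 and Abca8a, and Apoe has open circles in Control 1 alone.

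By position, 4 of the 23 Bmal1 CKO 2 peaks were end peaks (17.4%), 13 lay elsewhere inside a gene (56.5%) and 6 in a flank (26.1%). Over the windows of all protein-coding genes these shares were 17.8%, 57.9% and 24.3%. The shares over all genes in this paragraph count a peak once for each gene whose window holds it. Of the 43 Control 1 peaks, 8 were end peaks (18.6%), 20 lay elsewhere inside (46.5%) and 15 in a flank (34.9%), beside 15.8%, 58.5% and 25.6% over all protein-coding genes. Exons and introns could not be told apart with the gene table used. Every marker gene end peak had its summit inside the gene, 160 to 450 bp from the end in Bmal1 CKO 2 and 191 to 682 bp in Control 1. Over all genes 64.5% of end peaks in Bmal1 CKO 2 and 67.9% in Control 1 lay on the inner side.

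Peaks were spread at 4.96 per 100 kb of marker gene window in Bmal1 CKO 2 and 9.27 in Control 1, beside 6.52 in Bmal1 CKO 2 and 8.86 in Control 1 over the windows, each gene with 10 kb on either side, of all protein-coding genes. No marker gene had more peaks in Bmal1 CKO 2, 2 had equal numbers and 8 had more in Control 1. Among protein-coding genes as a whole, 19.3% had more in Bmal1 CKO 2, 20.8% equal numbers and 59.9% more in Control 1. The outermost peak kept was at 9699 bp from Abca8a in Bmal1 CKO 2, with a fold of 2.91. Of those just outside 10 kb in Bmal1 CKO 2, the one at 10674 bp from Car2 had 2.75 and the one at 10688 bp from Abca8a had 3.63, which is above the highest fold kept at Abca8a in that list (3.51). Of those in Control 1, the one at 10375 bp from Aqp4 had 2.91 and the one at 10818 bp from Car2 had 2.97.

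End peaks in both long lists were found at Glul, Dkk3, Clu and Car2, 4 of 10 marker genes, where 54.6% of all protein-coding genes had them. End peaks were listed in Control 1 and not in Bmal1 CKO 2 at Slc1a3, Apoe, Sox9 and Hes1 (14.8% of protein-coding genes), in Bmal1 CKO 2 and not in Control 1 at none (4.22%), and in neither at Aqp4 and Abca8a (26.3%). Among the 8 end peaks of Control 1, the 4 shared ones had the highest significance, with −log10 q-values of 5.73 to 17.0 and folds of 3.30 to 6.16. The 4 end peaks not shared had −log10 q-values of 2.33 to 4.66 and folds of 2.07 to 2.88 in Control 1. With 1 library per genotype behind each list, absence in Bmal1 CKO 2 has no replicate check.

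Of the 23 Bmal1 CKO 2 peaks, 16 (69.6%, exact binomial 95% interval 47.1% to 86.8%) overlapped a Control 1 peak by at least 1 bp, beside 56.7% over the windows of all protein-coding genes. Of the 43 Control 1 peaks, 15 (34.9%, 21.0% to 50.9%) overlapped a Bmal1 CKO 2 peak, beside 41.0%. Both intervals hold the share of all genes, and they cover counting error only. They take peaks as independent, though 12 of the 43 Control 1 peaks lay at Slc1a3, so they do not test the marker genes against all genes. At least 1 shared place was found at 9 of 10 marker genes, all but Apoe, beside 79.6% of protein-coding genes. By class, 4 of 4 end peaks, 9 of 13 inside and 3 of 6 flank peaks of Bmal1 CKO 2 were shared, beside 85.3%, 49.8% and 60.0% over all genes. In Control 1, 4 of 8 end, 8 of 20 inside and 3 of 15 flank peaks were shared, beside 64.4%, 35.6% and 41.4%. Shared peaks of Bmal1 CKO 2 had a median fold of 2.89 and the others 2.91, beside 3.00 and 2.85 over all genes. Shared peaks of Control 1 had a median fold of 3.61 and the others 3.01, beside 3.81 and 3.20 over all genes. With both lists limited to −log10 q-values of at least 5, 3 of 5 Bmal1 CKO 2 peaks were shared, beside 65.5% over all protein-coding genes, and 3 of 18 Control 1 peaks (16.7%), beside 29.1%. At a fold of at least 4, 1 of 1 Bmal1 CKO 2 peaks was shared, beside 78.2%, and 1 of 7 Control 1 peaks (14.3%), beside 14.0%.

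Under the limit of 5 on the −log10 q-value, 3 of 10 marker genes kept a peak in Bmal1 CKO 2 (Slc1a3, Dkk3 and Car2), beside 56.0% of protein-coding genes, and 8 did in Control 1, beside 80.6%. An end peak was left at 2 marker genes in Bmal1 CKO 2 (Dkk3 and Car2), beside 33.1%, and at 4 in Control 1 (Glul, Dkk3, Clu and Car2), beside 52.7%.

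**Figure D3:**
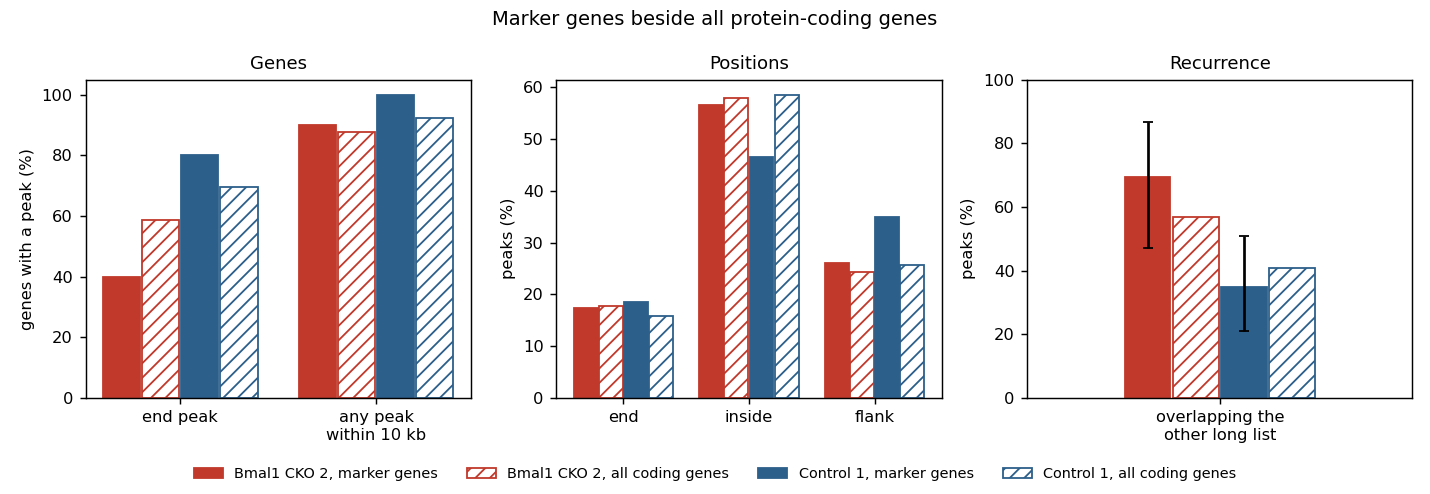
Left, percent of genes with an end peak or with any peak inside or up to 10 kb away; middle, percent of peaks at ends, elsewhere inside and in flanks; right, percent of peaks that overlap the other long list (y axes, percent). Filled bars are the marker genes and hatched bars all protein-coding genes, Bmal1 CKO 2 in red and Control 1 in blue, with exact binomial 95% intervals at right; 40% of marker genes had an end peak in Bmal1 CKO 2 and 80% in Control 1. In the middle panel a peak counts once for each gene whose window holds it. In the right panel the intervals of the marker genes hold the shares of all genes, but cover counting error only and are not a test.

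The shared peaks formed 16 pairs at 9 genes, 4 at ends, 9 inside and 3 in flanks. Summits of a pair lay 1 to 244 bp apart with a median of 72 bp, beside 80 bp over 46835 pairs of all protein-coding gene windows. The fold was lower in Bmal1 CKO 2 in all 16 pairs, and the ratio of Bmal1 CKO 2 to Control 1 ran from 0.551 at the Car2 end to 0.979 inside Abca8a, with a median of 0.840. Over all genes Control 1 had the higher fold in 89.2% of pairs and the median ratio was 0.784, so a lower fold in Bmal1 CKO 2 is not particular to the marker genes. The number of stacked fragments, not corrected for depth, was higher in Bmal1 CKO 2 in 9 pairs, equal in 2 and lower in 5. Its median ratio was 1.06 (0.775 to 1.53), beside 1.18 over all genes. The local background was higher in Bmal1 CKO 2 in all 16 pairs, with a median ratio of 1.53 (1.11 to 1.84), beside 1.65 over all genes and 1.69 for the genome-wide level. Relative to the genome-wide level of each library, stacked fragments were lower in Bmal1 CKO 2 in every pair. Over all genes the median stacked ratio of 1.18 also lay below the genome-wide ratio of 1.69. The shift is thus not particular to the marker genes, though its share of all pairs was not counted. At the Car2 end they stood at 5.32 in Bmal1 CKO 2 and 11.6 in Control 1. Folds are relative to the background used for each library, and the fold of 1 library was not tested against that of another.

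**Figure D4:**
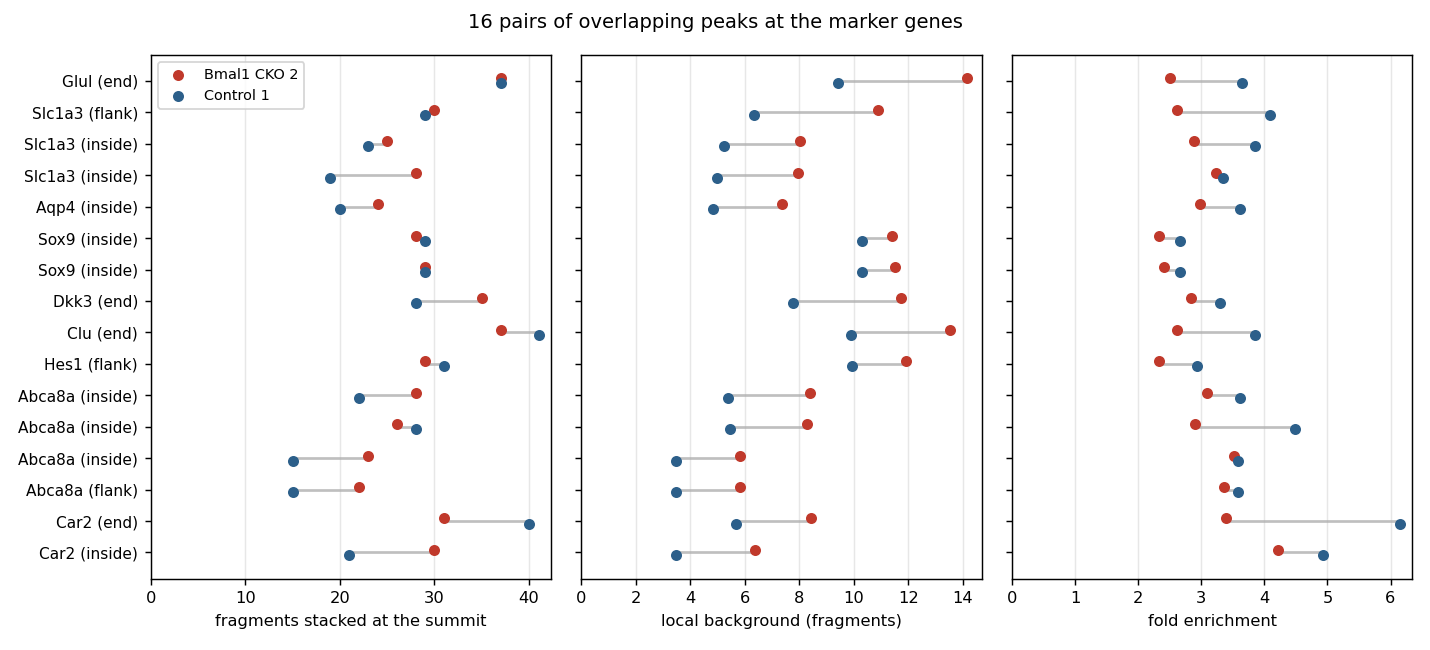
The 16 pairs of overlapping peaks, a row each, with Bmal1 CKO 2 in red and Control 1 in blue; x axes are fragments stacked at the summit, local background in fragments and fold enrichment. Stacked numbers, not corrected for depth, lie on either side of each other. The background is higher in Bmal1 CKO 2 in each row and the fold is lower in Bmal1 CKO 2 in each row, most of all at the Car2 end (3.39 in Bmal1 CKO 2 and 6.16 in Control 1).

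The local background differed between marker genes in both libraries. Relative to the genome-wide level of the library, its median over the peaks of a gene was 2.43 at Glul, 2.32 at Clu, 2.02 at Hes1, 2.01 at Dkk3 and 1.97 at Sox9 in Bmal1 CKO 2. In Control 1 it was 2.13 at Glul, 2.40 at Clu, 3.61 at Hes1, 2.32 at Dkk3 and 2.98 at Sox9, with 3.77 at Apoe. At Slc1a3, Aqp4, Car2 and Abca8a it ran from 1.00 to 1.36 in Bmal1 CKO 2 and from 1.00 to 1.45 in Control 1. Among the genes with the higher backgrounds, the highest fold of a gene ran from 2.40 (Sox9) to 2.83 (Dkk3) in Bmal1 CKO 2. In Control 1 it ran from 2.50 (Apoe) to 3.85 (Clu). At Slc1a3, Aqp4, Car2 and Abca8a it ran from 3.07 to 4.21 in Bmal1 CKO 2 and from 4.04 to 6.16 in Control 1. The local background divides the fold, so these values are not independent. The median of the highest folds was 2.83 over the 9 marker genes with a peak in Bmal1 CKO 2 and 3.75 over 10 in Control 1, beside 3.35 in Bmal1 CKO 2 and 4.38 in Control 1 over all protein-coding genes with a peak.

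The marker gene peaks of the long lists were scaled to the background of each short list and set against the lowest −log10 p-value listed there. Scaled to the background of Bmal1 CKO 3 and of Control 2, 0 of the 66 marker gene peaks reached the lowest −log10 p-value of those lists (5.05 in Bmal1 CKO 3 and 6.76 in Control 2). Scaled to Control 3, 1 peak did, the Car2 end peak of Control 1, with 6.43 against a lowest listed value of 6.20. Scaled to Bmal1 CKO 1, 1 of 23 Bmal1 CKO 2 peaks, at Car2, and 23 of 43 Control 1 peaks at 8 marker genes reached its lowest value of 5.45. The Bmal1 CKO 1 list held none of these peaks, nor did Control 3 hold the Car2 peak. The part of depth in the empty short lists was not tested, and an unlisted peak is not shown to be absent.

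Other lists of retinal cell genes gave counts on either side of these. Of 20 further Müller glia genes, 13 had an end peak in Bmal1 CKO 2, 17 in Control 1 and 12 in both. Of 15 rod genes the counts were 7 in Bmal1 CKO 2, 9 in Control 1 and 7 in both. Of 15 genes of microglia and vessels they were 3 in Bmal1 CKO 2, 8 in Control 1 and 3 in both. None of these genes had a peak in its window in a short list. As shares, the further Müller glia list had end peaks at 65% of its genes in Bmal1 CKO 2 and 85% in Control 1, and the 10 marker genes at 40% in Bmal1 CKO 2 and 80% in Control 1, beside 58.8% and 69.5% of all protein-coding genes. The Müller glia lists thus lay on either side of all genes in Bmal1 CKO 2 and both above them in Control 1. The rod list lay below all genes in both libraries, at 46.7% in Bmal1 CKO 2 and 60.0% in Control 1. So did the list of microglia and vessels, with 3 of 15 genes in Bmal1 CKO 2 and 8 of 15 (53.3%) in Control 1. End peaks in both libraries were found at 54.6% of all protein-coding genes. The lists were compared by counts and shares alone, so a trait of Müller glia genes was not tested.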

How the data were processed

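BMAL1 ChIP-seq peaks were analysed as deposited, 1 list per library. Tools named in the submitters' processing notes are Bowtie2, Trim Galore and MACS2, with the build mm10. Their versions and settings, and whether an input was used, are not stated in the sources at hand. The authors deposited, per peak, a fold enrichment (a ratio) at the summit over the local background used for the library, its −log10 p-value, its −log10 q-value, an integer score (the −log10 q-value times 10, decimals dropped) and the offset of the summit. Lists were tied to libraries by the series record alone, since the lists' own names carry another numbering than the library titles.

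The summit was the start plus the offset. Gene limits came from a RefSeq table of GRCm38.p6, the coordinates of mm10, which has no strand; starts were known for 4 marker genes from the promoter table. Stacked fragments and local background were solved from fold and p-value (Poisson, pseudocount of 1 in the fold), came out whole within 0.02 in 100.0% of peaks per library, and were recovered in 98.5% of 1000 simulated peaks. The 15 misses had at most 8 fragments over a background under 1, where a second solution exists. Marker gene peaks had at least 12 fragments over 3.46 or more, and 668 of 668 simulated peaks with 12 fragments or more over 3 or more were recovered. Backgrounds were rounded, and the median background of the peaks at the lowest rounded value of a list was taken as relative depth. The lowest deposited −log10 q-value of a list was 1.30 to 2.53.

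Libraries, each counted as 1 replicate, were compared by exact two-sided permutation over 20 assignments. Overlap meant 1 bp or more. No set test was run. The marker genes, the other lists and the tests were chosen with earlier results of these data known. All 10 marker genes are named, with their end peaks, highest folds and any peak in a short list; genes of other lists are counted. Alternatives were window and end size, stricter peaks, equal list length, overlap rule, pairing by replicate number and leaving out libraries or genes. Python 3.11.15, numpy 2.4.6, pandas 2.3.3 and scipy 1.17.1 were used.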

Additional observations from a re-analysis of the deposited data

How the results depend on the processing

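Over the replicates left out in turn, the difference between Bmal1 CKO and control libraries ran from −14.3 to 7.67 peaks, from −3.33 to 3.00 marker genes with a peak and from −2.67 to 1.33 marker genes with an end peak. It reversed without Control 1 (7.67, 3.00 and 1.33), and for marker genes with a peak also without Bmal1 CKO 1 or Bmal1 CKO 3 (1.17 each). Without both long lists each of the 3 differences was 0 (0 against 0), as no short list had a marker gene peak. With a 50 kb window the difference in genes with a peak was 0 (3.33 in each genotype). Every marker gene then had a peak in the long list of each genotype and none in a short list. The exact permutation p was 0.70 to 1 under all of these. With the replicate number as a block the 3 differences were the same, −6.67, −0.333 and −1.33, each with an exact sign-flip permutation p of 1. That p was fixed too, since only the long list of each genotype had peaks and no flip gives a smaller absolute difference. Same-numbered libraries deviated with correlations of −0.769, −0.787 and 0.775 over 21900 genes, but these signs go with list length (numbers 1 and 2 each join a long and a short list, number 3 joins 2 short ones) and cannot decide pairing. The labels name no shared litter, batch or day for a number, so it was not used as a pairing. The other settings kept the direction.

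The share of Bmal1 CKO 2 peaks that overlap Control 1 was 60.0% to 76.5% under the other overlap rules, the q-value limit, equal list length and the gene body alone. It was 100% at a fold of at least 4, where 1 peak was left. The share of Control 1 peaks was 30.2% to 45.5% under these, 16.7% with −log10 q-values limited to 5 or more and 14.3% (of 7 peaks) at a fold of at least 4, where fewer peaks remain in both lists. Leaving out each marker gene gave 66.7% to 72.2% for Bmal1 CKO 2 and 29.7% to 38.7% for Control 1. With the gene body alone, 5 of 18 highest folds moved. Hes1 in Bmal1 CKO 2 is not among the 18, as it had no peak inside the gene. End peaks by start site were not run, as starts were known for 4 marker genes only.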
